A study of Mus musculus with 11 samples.

Results

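The 26S proteasome degrades ubiquitin-tagged proteins, and 31 genes of its constitutive subunits were taken here as 1 group. The genes were chosen by name, as the rows of the deposited count table whose Ensembl identifier carries the symbol of a subunit of the 20S core (Psma1 to Psma7 and Psmb1 to Psmb7) or of the 19S cap (Psmc1 to Psmc6 and 11 Psmd genes). All 31 were found among the 39017 genes of the table, 14 for the core and 17 for the cap. Polyadenylated RNA had been sequenced from mice at 13 to 14 weeks of age whose floxed Dicer gene was recombined by Camk2a-Cre, a transgene active in forebrain excitatory neurons, and from controls. Dicer cuts microRNA precursors, and the KO animals were Camk2a-Cre;Dicer flox/flox. The labels do not state the genotype of the controls, so whether they carried floxed Dicer or Cre is not known here. The neocortex gave 3 control libraries (D5129, D5134, D5135) and 3 KO libraries (D5130, D5132, D5133), all male. From the hippocampal CA1 region came 3 controls, the males D5134 and D5135 with the female D5138, and 2 male KO animals, D5130 with D5133. A library is named by its animal, 7 animals were used, and 4 of them gave both tissues.

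In the 26S particle, stacked rings of alpha and beta subunits form the barrel of the core. The alpha rings gate the entrance, and the beta rings line the chamber, where Psmb5, Psmb6 and Psmb7 encode the catalytic subunits with chymotrypsin-like, caspase-like and trypsin-like activity. The cap binds ubiquitin chains, removes them, and feeds the unfolded protein through a ring of ATPases (the Psmc genes) into the core. In neurons the proteasome is known for turning over synaptic proteins. Cells that fall short of proteasome activity are known to raise most subunit genes together through the transcription factor Nfe2l1, also named Nrf1.

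The neocortex libraries held 43144097 to 58329441 gene reads each, and the CA1 libraries 24806581 to 35684618. The 31 genes took 0.263% to 0.298% of the neocortex reads and 0.251% to 0.261% of the CA1 reads, and no member had fewer than 878 reads in a neocortex library or 553 in a CA1 library. All 31 passed the filter on low counts in both tissues. Dicer1 itself was counted at 59.3 to 66.5 CPM (reads scaled to a common library size, as edgeR's cpm gives them) in the neocortex controls and 59.0 to 63.3 CPM in the KO libraries, and at 68.7 to 75.2 and 71.6 to 73.3 CPM in the CA1. The Dicer1 ranges overlapped in both tissues, with edgeR adjusted p-values of 0.797 and 0.988. A count over the whole gene also takes reads outside the floxed part and from cells without Cre, so it does not check the labels, and the genotypes rest on the labels alone. Since a tissue sample mixes cell types, fewer cells of a type and less RNA per cell cannot be told apart in any value given here.

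The levels of the members were compared per length, as CPM per kb of the principal annotated transcript, which ran from 766 to 3112 bases. In the neocortex controls the median member stood at 60.6 CPM per kb, and in the CA1 controls at 56.7. Core and cap had like medians, 58.4 and 62.0 CPM per kb in the neocortex and 57.4 and 56.3 in the CA1.

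The member with the most RNA per length was Psmc5 (chromosome 11, 106256154 to 106263120, GRCm38), an ATPase of the cap, at 133 ± 10.0 CPM per kb (SD, n = 3) in the neocortex controls and 105 ± 0.611 (SD, n = 3) in the CA1 controls. Psma7, Psmb6 and Psmb4 followed in the neocortex at 95.4 ± 3.13, 94.5 ± 2.64 and 94.2 ± 8.16 CPM per kb (SD, n = 3), levels that did not differ beyond their spread. The lowest was the alpha ring gene Psma3 (chromosome 12, 70974621 to 70996347), at 7.18 ± 0.207 CPM per kb (SD, n = 3) in the neocortex and 7.03 ± 0.818 (SD, n = 3) in the CA1. The Psma3 and Psma2 values depend on the transcript chosen, since both carry a long annotated 3′ UTR, of 1952 and 2171 bases. Reads shared with near-identical pseudogenes could also lower a level. Such copies took 16.6% to 28.5% of the reads of Psma3 and its copies together, 13.4% to 19.2% for Psma5, and at most 5.77% for any other member.

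Psmb5 (chromosome 14, 54614119 to 54618022) was the lowest of the catalytic genes, at 28.8 ± 2.88 CPM per kb (SD, n = 3) in the neocortex controls. Psmb6 (chromosome 11, 70525367 to 70527858) stood at 94.5 and Psmb7 (chromosome 2, 38588036 to 38644087) at 88.5 ± 8.31 (SD, n = 3). In the CA1 controls the 3 genes stood at 34.5 ± 2.64, 82.4 ± 2.97 and 92.6 ± 5.91 CPM per kb (SD, n = 3). The order of Psmb6 and Psmb7 thus differed between the tissues, by less than their spread in the neocortex. The annotated Mir686 shares 109 bases of the Psmb5 exons on the same strand, and its reads came to 6.48% to 8.95% of those of Psmb5 in neocortex libraries and 20.2% to 22.3% in CA1 libraries. Setting the CA1 controls against the neocortex controls, the log2 ratio of CPM ran from -0.35 (Psmc5) to 0.26 (Psmb5), with a median of -0.12. Tissue and kit cannot be told apart in that ratio, since the neocortex libraries came from a stranded kit and the CA1 libraries from an unstranded one, and the tissues were scaled separately.

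**Figure D1:**
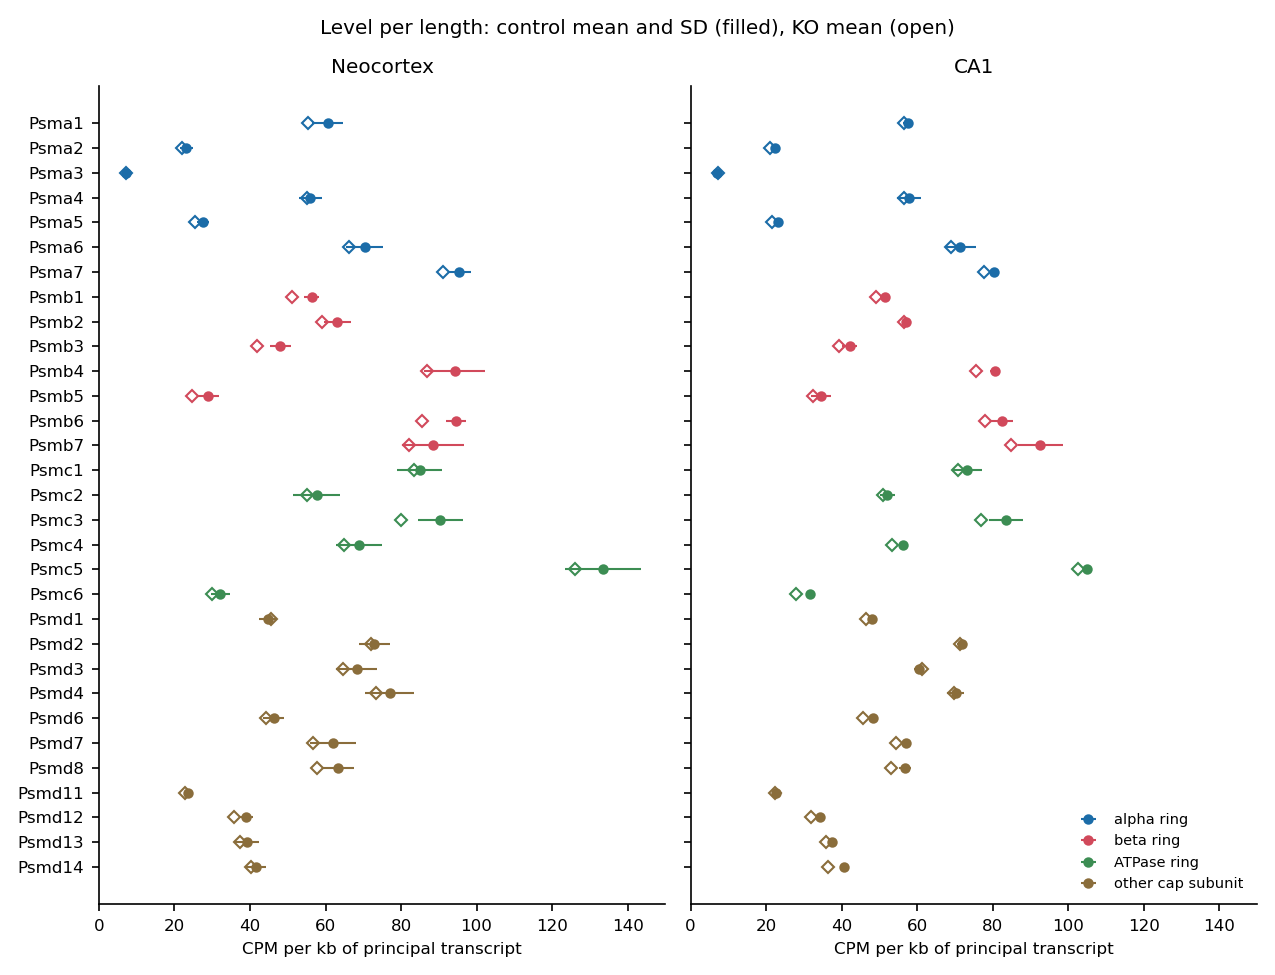
Level of each member per length of its principal transcript (x axis, CPM per kb, from 0) in the neocortex and the CA1. Filled points with bars are the control mean and SD (n = 3), open diamonds the KO mean (n = 3 in the neocortex, 2 in the CA1), and colours give the role. Psmc5 is highest at 133 and 105 CPM per kb and Psma3 lowest at 7.18 and 7.03.

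Promoter sequence was read from RefSeq on GRCm38.p6, as the 250 bases before to 50 after each annotated start, for the 25 members listed there (11 core, 14 cap). Psmb1, Psmb2, Psmb7, Psmc3, Psmd3 and Psmd7 had no entry. The letters TGACNNNGC, the core of the antioxidant response element that Nfe2l1 and Nfe2l2 are known to bind, occurred on either strand in 4 of the 25 genes (16.0%), against 12.4% of 32851 promoters. Those 4 were the catalytic core genes Psmb5 and Psmb6 and the cap genes Psmc6 and Psmd12. The promoters of Psmb5, Psmb6 and Psmc6 are shown because these genes recur in the comparisons that follow. Capitals mark the antioxidant response element letters, and in Psmc6 also the letters CCGGAAG, known to be bound by ETS factors.
Psmb5, chr14:54617946-54618245, minus strand: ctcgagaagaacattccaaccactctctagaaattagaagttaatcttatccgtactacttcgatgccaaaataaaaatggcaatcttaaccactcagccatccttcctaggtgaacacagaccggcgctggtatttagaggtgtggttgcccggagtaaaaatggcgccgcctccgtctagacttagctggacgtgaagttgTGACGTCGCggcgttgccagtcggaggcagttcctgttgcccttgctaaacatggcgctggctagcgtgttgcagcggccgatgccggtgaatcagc
Psmb6, chr11:70525107-70525406, plus strand: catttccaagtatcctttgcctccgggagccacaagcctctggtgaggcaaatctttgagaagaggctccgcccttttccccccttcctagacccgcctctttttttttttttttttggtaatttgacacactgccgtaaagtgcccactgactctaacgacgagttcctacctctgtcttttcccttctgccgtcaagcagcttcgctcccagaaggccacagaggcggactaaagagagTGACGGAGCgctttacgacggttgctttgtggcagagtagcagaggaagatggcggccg
Psmc6, chr14:45329574-45329873, plus strand: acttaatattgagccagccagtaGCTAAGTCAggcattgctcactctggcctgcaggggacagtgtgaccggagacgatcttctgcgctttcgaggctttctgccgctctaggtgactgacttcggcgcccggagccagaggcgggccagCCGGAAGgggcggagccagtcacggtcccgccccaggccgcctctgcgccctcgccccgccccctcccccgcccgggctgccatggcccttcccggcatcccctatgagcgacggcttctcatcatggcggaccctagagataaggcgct
In Psmb5 and Psmb6 the element letters begin 47 and 9 bases before the start, on the strand of the gene, and read TGACGTCGC and TGACGGAGC. In Psmc6 they lie on the opposite strand and begin 227 bases before the start, and CCGGAAG begins 100 bases before it.

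CCGGAAG, searched on both strands, was found in 10 of the 25 member genes (40.0%) and in 8.86% of all promoters. Of the 10 genes, 9 were cap genes (of 14) and 1 was a core gene (Psma6, of 11). CCAAT was found in 10 member genes (40.0%, against 37.4% of all promoters), 6 of the core and 4 of the cap. GGGCGG, the GC box, was found in 15 (60.0% against 35.7%). The palindrome of nuclear respiratory factor 1, which is GCGC, any pair of bases and GCGC, was found in 6 (24.0% against 6.23%). Overlapping hits of different motifs were each counted. Member shares are per gene, from 27 promoters of the 25 genes, and the shares of all are per promoter. The promoters were not matched for base composition. A match is a run of letters in this window and not a measured binding site.

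Since Dicer makes microRNAs, the 3′ UTRs of the members were read from the GENCODE transcripts. The median length was 169 bases, against 839 over 20154 genes, and 26 of the 31 members were shorter than that median. An 8-base site (complement of microRNA bases 2 to 8, then A) for any of 9 microRNAs known from brain, a list chosen after the values were seen, was held by 2 members. Over all genes the share with such a site was 25.9%, without matching for 3′ UTR length, and miR-124 was not among the 9 searched. The sites were in Psma3 for miR-29a-3p, beginning at base 443 of 1952, and in Psmc1 for miR-125b-5p, beginning at base 16 of 213. The microRNAs, with the seed in capitals, and their sites, with the match in capitals, are these.
mmu-miR-29a-3p: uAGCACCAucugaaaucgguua
Psma3 site: tacatttaaattctTGGTGCTAttct
mmu-miR-125b-5p: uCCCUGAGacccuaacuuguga
Psmc1 site: ggcccacagtcgtcCTCAGGGAtggg
Neither gene was called in either tissue. The fold changes, given as log2 values of KO minus control, were -0.029 and -0.025 in the neocortex and 0.047 and -0.049 in the CA1 for Psma3 and Psmc1.

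In the neocortex no member passed the threshold (edgeR quasi-likelihood test, adjusted p under 0.05 over 16971 genes), 0 of 31 higher and 0 of 31 lower. Over all genes tested, 1.51% were called higher and 1.2% lower. The smallest adjusted p was 0.123 (Psmc3), and 5 members had an unadjusted p under 0.05 (Psmb1, Psmb3, Psmb5, Psmb6 and Psmc3), where 18% of all genes did, so this count was near the background. DESeq2 called 0 members as well. The estimates nevertheless lay on 1 side of 0, with 30 of 31 members below it, and a median of -0.084 on the log2 scale, a difference of -5.67%. The median of all genes was 0.0021, and 49.4% of them were below 0. All 31 members' 95% intervals lay within 0.5 of 0 on the log2 scale, with bounds from -0.43 to 0.14.

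The beta ring held the members furthest below 0. In the order D5129, D5134 and D5135 for controls and D5130, D5132 and D5133 for KO, kept for this tissue from here on, Psmb5 had control values of 24.5, 28.9 and 24.3 CPM and KO values of 22.5, 24.3 and 19.6 CPM. Every KO value lay below every control value, though KO D5132 and control D5135 both rounded to 24.3, and the KO D5133 was the lowest. This amounted to -0.23 ± 0.095 on the log2 scale (SE), and edgeR gave an adjusted p of 0.234. Psmb3 (chromosome 11, 97703399 to 97713500), a structural beta subunit, stood at 35.8, 39.2 and 35.4 CPM in the controls, against KO values of 31.2, 33.0 and 31.9 CPM. The groups did not overlap, at -0.20 ± 0.067 on the log2 scale (SE, edgeR adjusted p = 0.137).

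The other catalytic genes differed in how far their libraries overlapped. Psmb6 stood at 74.0, 77.8 and 74.4 CPM in the neocortex controls, against KO values of 68.8, 65.1 and 70.7 CPM, without overlap (log2 fold change -0.15 ± 0.057, SE, edgeR adjusted p = 0.200). Psmb7 stood at 97.1, 114 and 96.9 CPM in the controls, against KO values of 99.8, 90.02 and 95.5 CPM, where D5130 lay above 2 controls (log2 fold change -0.11 ± 0.070, SE, edgeR adjusted p = 0.464). The 7 beta genes had a median of -0.14 and ran from -0.23 to -0.094, with 4 at an unadjusted p under 0.05 (18% of all genes). The 7 alpha genes had a median of -0.069 and ran from -0.13 (Psma1) to -0.022 (Psma4), with 0 at an unadjusted p under 0.05.

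In the cap the ATPase gene Psmc3 (chromosome 2, 91054009 to 91066369) was lowest relative to controls. Its control values were 139, 158 and 146 CPM and its KO values 133, 131 and 129 CPM, which did not overlap (log2 fold change -0.17 ± 0.056, SE, edgeR adjusted p = 0.123). Psmc3 shares 215 exon bases with Slc39a13 on the opposite strand. Psmd1 (chromosome 1, 86064387 to 86139151), the large scaffold of the cap, was the only member above 0 in this tissue. Its values were 132, 146 and 140 CPM in the controls and 145, 136 and 144 CPM in KO, which overlapped throughout (log2 fold change 0.026 ± 0.054, SE, edgeR adjusted p = 0.870). Psmd1 shares 301 exon bases with Gm21972 on the same strand. The Gm21972 reads came to 14.9% to 17.3% of those of Psmd1 in neocortex libraries and 19.9% to 21.1% in CA1 libraries. The 6 ATPase genes had a median of -0.084, and the 11 other cap genes -0.070.

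**Figure D2:**
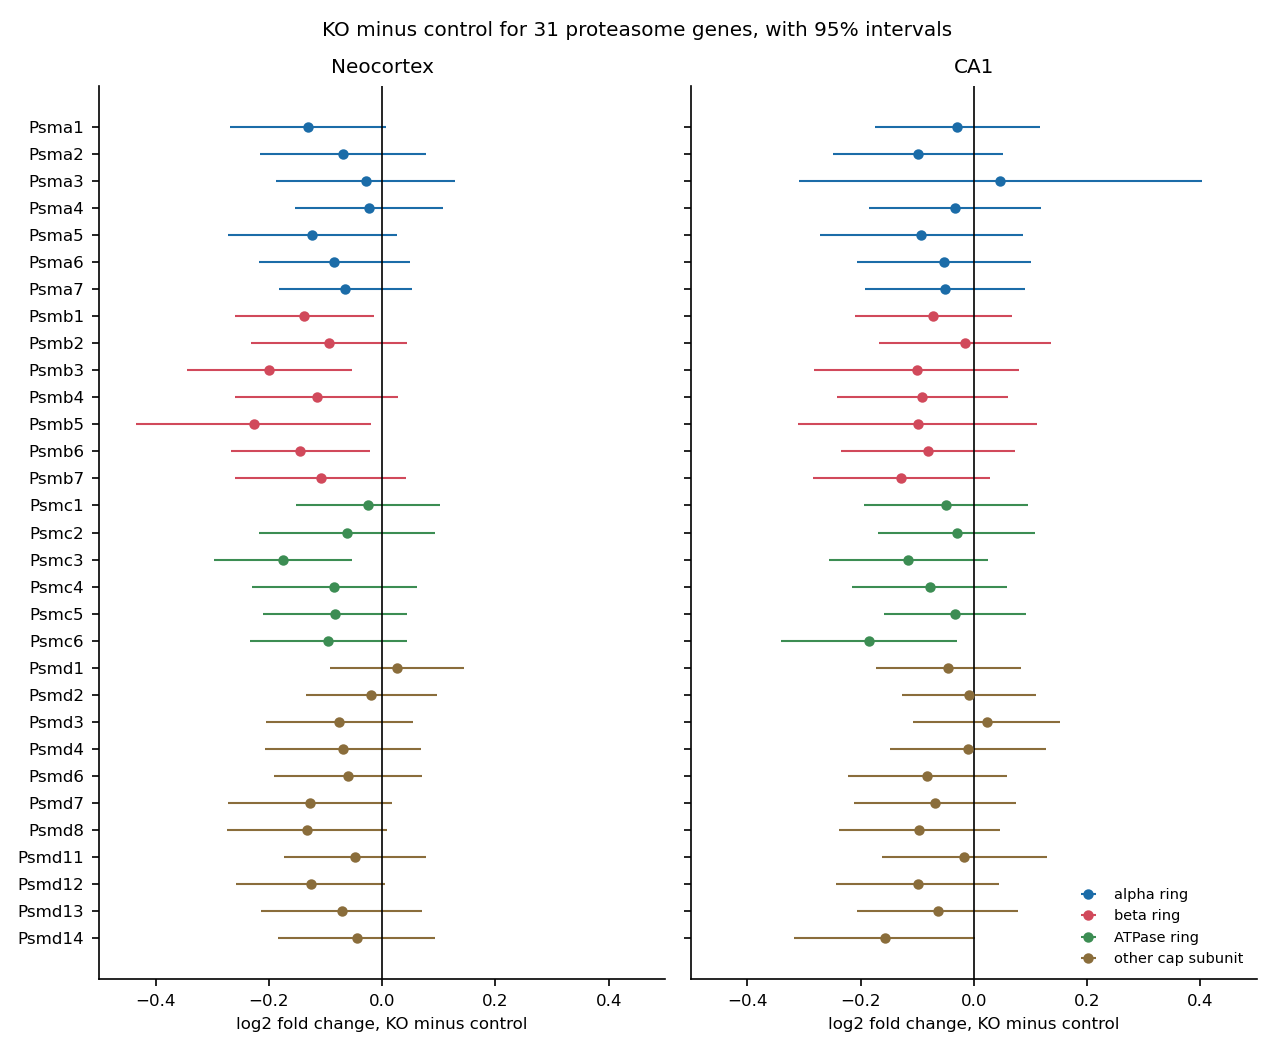
Log2 fold change of KO minus control for each member (x axis) with its 95% interval (bars), in the neocortex (3 against 3 libraries) and the CA1 (3 control against 2 KO), coloured by role. The points run from -0.23 (Psmb5) to 0.026 (Psmd1) in the neocortex and from -0.18 (Psmc6) to 0.047 (Psma3) in the CA1, and no member was called.

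The neocortex difference moved with 1 control library. D5134 was the highest of the 6 libraries for 29 of 31 members, and it was the highest for 24.7% of all genes. Relative to the control mean, the members' mean log2 CPM was 0.10 in D5134, against -0.063 in D5129 and -0.038 in D5135. The KO libraries stood at -0.065 (D5130), -0.099 (D5132) and -0.11 (D5133), so the KO D5130 and the control D5129 stood close together. D5134 was also the highest for 6 of the 8 genes of the cytosolic chaperonin CCT. Without D5134 the median of the members was -0.029, with 24 below 0.

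The spike-in RNAs divided the neocortex libraries into 2 sets, each with both genotypes, D5129, D5130 and D5132 in set 1 and D5133, D5134 and D5135 in set 2. Within set 1 (1 control, 2 KO) the members' median was -0.014, with 19 of 31 below 0. Within set 2 (2 controls, 1 KO) it was -0.13, with 29 below 0. Fitted with set as a batch covariate, it was -0.073, with 29 below 0. What sets the sets apart is not given in the labels.

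**Figure D3:**
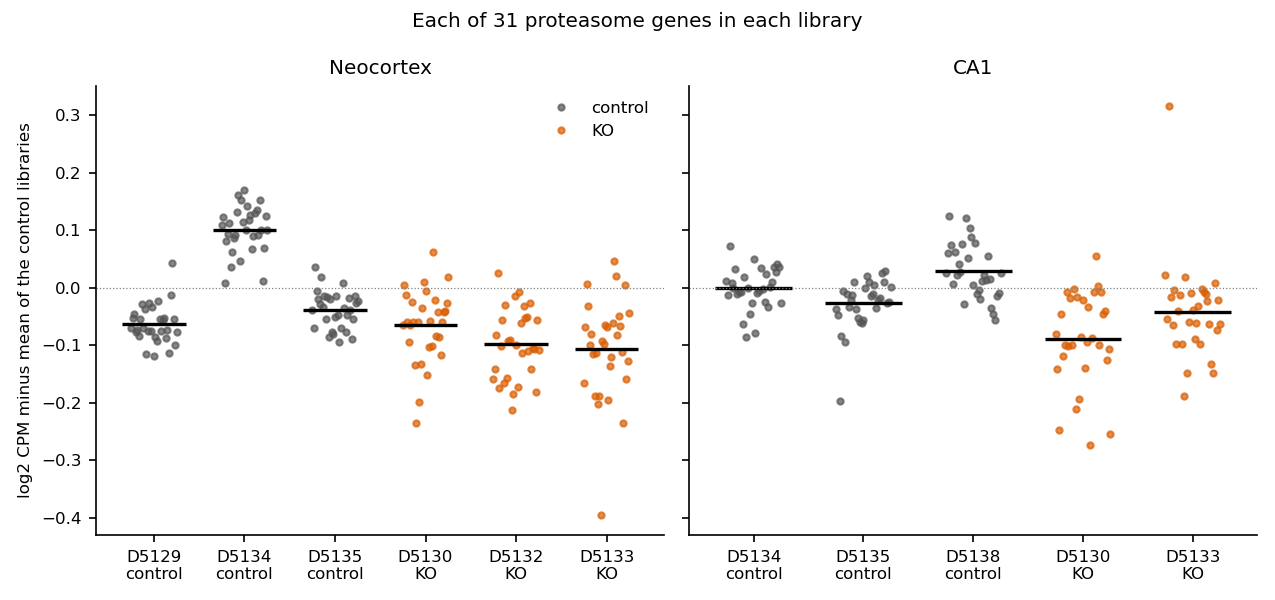
Each point is 1 of the 31 members in 1 library, as log2 CPM minus the mean of the control libraries of that tissue (y axis), grey for control and orange for KO, and the bar is the mean over members. The neocortex control D5134 stands apart at a mean of 0.10, and the KO means run from -0.11 to -0.065.

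Every KO library lay below every control library for 6 of the 31 members in the neocortex (19.4%), against 12.4% of all genes, and above for 0, against 11.6%. The 6 were Psma5, Psmb1, Psmb3, Psmb5, Psmb6 and Psmc3, of which 4 belong to the beta ring.

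The CA1 gave the same count of calls. No member was called, 0 of 31 higher and 0 of 31 lower by edgeR over 18274 genes, of which 2.47% were called higher and 1.41% lower. The smallest adjusted p was 0.197 (Psmc6), and Psmc6 was the only member at an unadjusted p under 0.05, against 17.3% of all genes. DESeq2 called 0 as well. Of the 31 members 29 lay below 0, the median was -0.068 (-4.63%), and the median of all genes was -0.00041, with 50.1% below 0. The bounds of the 95% intervals ran from -0.34 to 0.40, so that a difference of over 0.5 on the log2 scale lay outside the interval for each of the 31 members.

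Psmc6 (chromosome 14, 45329788 to 45349705), an ATPase of the cap, had control values of 72.2, 69.9 and 69.6 CPM (D5134, D5135, D5138, the order used for the CA1) and KO values of 58.4 and 65.9 CPM (D5130, then D5133). The groups did not overlap, with D5130 the lowest (log2 fold change -0.18 ± 0.072, SE, edgeR adjusted p = 0.197). Psmd14 (chromosome 2, 61711694 to 61800376), the deubiquitinase of the cap, showed the same order, at 61.4, 62.6 and 63.7 CPM in the controls and 52.4 and 59.9 CPM in the KO libraries (log2 fold change -0.16 ± 0.074, SE, edgeR adjusted p = 0.295). In the neocortex these genes had been at -0.095 ± 0.064 (Psmc6) and -0.045 ± 0.064 (Psmd14, both SE), and their neocortex groups overlapped.

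The catalytic genes overlapped between genotypes in the CA1. Psmb7 stood at 104, 103 and 115 CPM in the controls, against KO values of 93.8 and 103 CPM (log2 fold change -0.13 ± 0.073, SE, edgeR adjusted p = 0.403). Its overlap rests on a near tie, with the KO D5133 at 102.961 CPM and the control D5135 at 102.96 CPM. Psmb5 stood at 29.1, 30.2 and 33.7 CPM in the controls, against KO values of 26.7 and 31.3 CPM, where D5133 lay above 2 controls (log2 fold change -0.099 ± 0.098, SE, edgeR adjusted p = 0.684). Psmb6 stood at 65.7, 63.4 and 68.2 CPM and at 65.0 and 59.3 CPM (log2 fold change -0.081 ± 0.071, SE, edgeR adjusted p = 0.633). The structural Psmb3, at 30.8, 32.0 and 34.0 CPM against 30.1 and 30.1 CPM, did not overlap and differed by -0.10 ± 0.084 on the log2 scale (SE, with an edgeR adjusted p of 0.610).

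Psmc3 stood at 129, 136 and 144 CPM in the CA1 controls, against KO values of 124 and 128 CPM, again without overlap (log2 fold change -0.12 ± 0.065, SE, edgeR adjusted p = 0.399). Psmc5, at 138, 139 and 138 CPM against 135 and 135 CPM, differed by -0.033 ± 0.058 (log2, SE). In the neocortex Psmc5 had stood at 173, 190 and 164 CPM in the controls, against KO values of 168, 168 and 161 CPM, with overlap.

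Above 0 in the CA1 were Psma3 and Psmd3. Psma3 stood at 20.9, 17.4 and 21.7 CPM in the controls, against KO values of 16.8 and 24.8 CPM, so the KO libraries held both the lowest and the highest value (log2 fold change 0.047 ± 0.16, SE, edgeR adjusted p = 0.928). With the reads of all near-identical pseudogenes added, all 14 core genes lay below 0 in the CA1, Psma3 included. In the neocortex Psma3 stood at 19.8, 20.6 and 20.96 CPM in the controls, against KO values of 20.3, 19.3 and 20.5 CPM. Psmd3 (chromosome 11, 98682554 to 98695979), a structural subunit of the cap lid, stood at 132, 127 and 131 CPM against 135 and 129 CPM in the CA1 (log2 fold change 0.022 ± 0.061, SE). Its neocortex values were 141, 160 and 139 CPM in the controls and 138, 141 and 138 CPM in the KO libraries. Psmd1 stood at 149, 148 and 151 CPM in the CA1 controls, against KO values of 141 and 149 CPM, on the other side of 0 from the neocortex, at -0.045 ± 0.060 (log2, SE).

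By role, the CA1 medians were -0.051 for the alpha ring, -0.091 for the beta ring, -0.064 for the ATPase ring and -0.064 for the other cap genes. KO lay wholly below control for 12 of the 31 members (38.7%), 4 of the core and 8 of the cap, against 16.3% of all genes, and wholly above for 0, against 17.4%. With 2 KO libraries this order is reached more easily than in the neocortex. The 12 included Psma5, Psmb1, Psmb3 and Psmc3, which made 4 members wholly below in both tissues, and 17 were so in neither. Of the 16544 genes tested in both tissues, 4.29% were wholly below in both and 75% in neither. The tissues share animals, so the 2 counts are not independent. The female control D5138 was the highest of the 5 libraries for 19 members, and it was the highest for 18.5% of all genes. The KO D5130 was the lowest for 19 members. The share of all genes lowest in D5130 is not given, so that count has no background beside it. The median was -0.050 without D5138 and -0.040 without D5130, with 26 and 27 members below 0.

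Core and cap were then set against each other within each library, as the mean log2 CPM of the 14 core genes minus that of the 17 cap genes. The level of this score reflects gene length as well, so only its differences are compared. In the neocortex it was -0.808, -0.823 and -0.791 in the controls D5129, D5134 and D5135, and -0.841, -0.838 and -0.853 in KO (D5130, D5132, D5133). The KO libraries lay below all controls, and the difference of the means, -0.037 on the log2 scale, exceeded the SD of the controls (0.016) and of the KO libraries (0.0080). Each SD rests on few libraries, and the difference was not tested. Within the spike-in sets it was -0.032 (set 1) and -0.046 (set 2), and without D5134 it was -0.045. The control D5134, which was high for nearly every member, thus did not stand apart in the balance of core and cap. Core genes had a median fold change of -0.11 and cap genes of -0.071. Within the core, the KO libraries' mean relative to the control mean was -0.15 for the beta ring and -0.074 for the alpha ring. The cap stood at -0.073, close to the alpha ring, so in these neocortex means the beta ring set the core apart from the cap. This split by ring was not tested. In the CA1 the same means were -0.046 for the alpha ring, -0.084 for the beta ring and -0.066 for the cap.

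In the CA1 the core minus cap score was -0.786, -0.816 and -0.729 in the 3 controls (D5134, D5135, D5138) and -0.795 and -0.756 in KO (D5130, D5133). The KO values lay inside the range of the controls, and the difference of the means was 0.00099, against a control SD of 0.044. Without D5138 the difference was 0.025, and without the KO D5133 it was -0.018. No test was made of whether the score differed between the tissues.

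**Figure D4:**
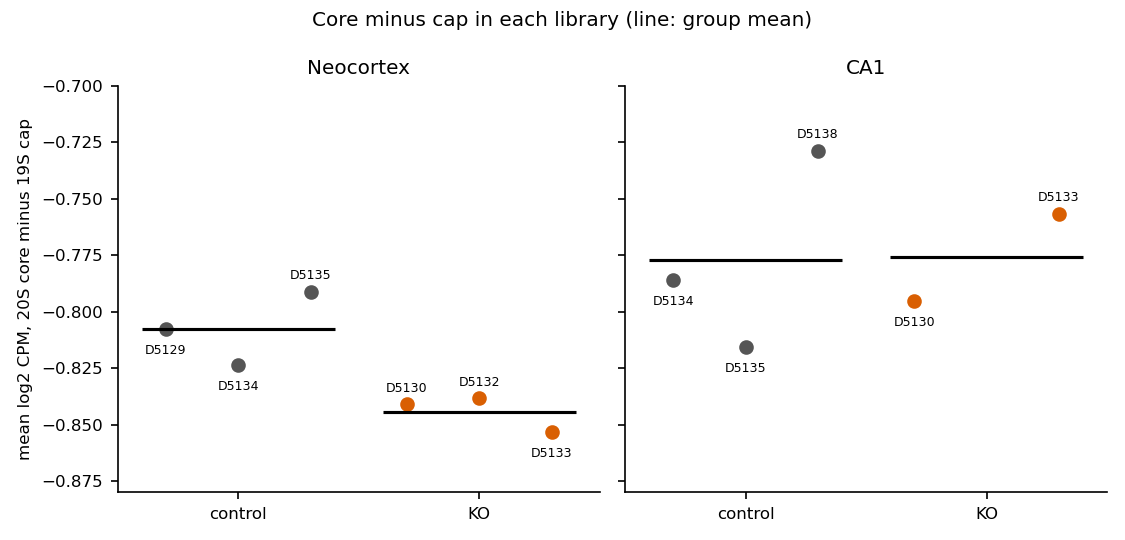
Mean log2 CPM of the 14 core genes minus that of the 17 cap genes (y axis, log2 units, not from 0) in each library, grey for control and orange for KO, with the group mean as a line. In the neocortex the KO libraries (-0.853 to -0.838) lie below the controls (-0.823 to -0.791), and in the CA1 the groups overlap.

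Whether the KO effect on a member differed between the tissues was tested as an interaction over the 11 libraries, by edgeR's quasi-likelihood test. It was past the threshold for 0 of the 31 members, and for 0.0935% of the 19256 genes tested. No member had an unadjusted p under 0.05, against 9.51% of all genes, and the smallest adjusted p was 0.765. The interaction, as the CA1 fold change minus the neocortex fold change, ran from -0.11 ± 0.099 (Psmd14, SE) to 0.13 ± 0.14 (Psmb5, SE), with a median of 0.032. With animal as a block the median was 0.066, and 0 members were called. The 95% intervals of single members reached from 0.15 to 0.37 on either side of the estimate, with a median of 0.19. Below 0 in both tissues were 28 members, which again rests partly on shared animals. Over all genes tested, 49.4% lay below 0 in the neocortex and 50.1% in the CA1. The share of all genes below 0 in both is not given, so the count of 28 has no background beside it.

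**Figure D5:**
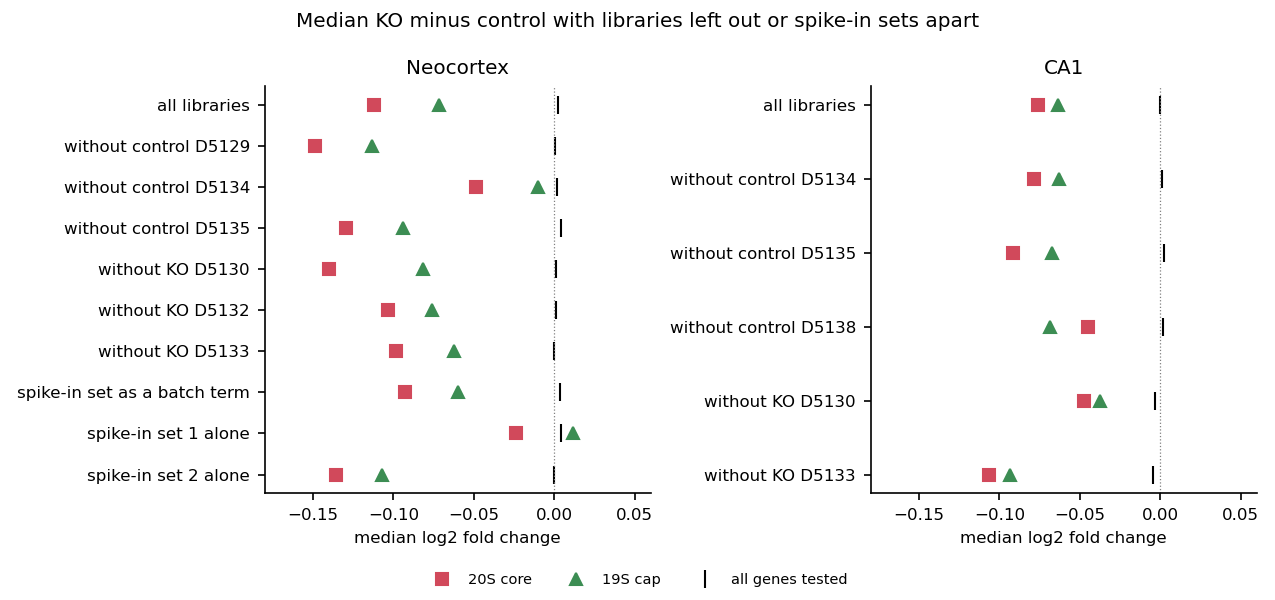
Median log2 fold change (x axis) of the core genes (squares), the cap genes (triangles) and all genes tested (ticks), with all libraries, with 1 library left out, and, in the neocortex, with spike-in set as a covariate or each set alone. The neocortex core median runs from -0.15 to -0.024, and the cap median from -0.11 to 0.011.

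The genes around the proteasome were read from lists of related genes. The 8 assembly chaperones tested, which build the core and the cap base, gave 0 calls in either tissue and medians of -0.11 in the neocortex and -0.058 in the CA1, with 7 of 8 below 0 in each. Pomp, which guides beta ring assembly, stood at 102 ± 8.55 CPM (SD, n = 3) in the neocortex controls and 88.5 ± 5.95 (SD, n = 3) in the KO libraries (log2 fold change -0.21, edgeR adjusted p = 0.137), and at -0.094 in the CA1 (edgeR adjusted p = 0.513). Of the 10 other cap and associated genes 0 were called, with medians of -0.070 and -0.023. Usp14, a deubiquitinase of the cap, had the smallest p of them in both tissues, at -0.14 (edgeR adjusted p = 0.144) in the neocortex and -0.19 (edgeR adjusted p = 0.155) in the CA1. Adrm1, a ubiquitin receptor, stood at 0.27 in the CA1 (edgeR adjusted p = 0.177), and Sem1 at 0.15 (edgeR adjusted p = 0.389). For both, the CA1 KO libraries lay wholly above the controls, as for 17.4% of all genes. In the neocortex Adrm1 stood at -0.074 and Sem1 at -0.086. Both belong to this list and not to the 31 members, so statements on the cap do not cover them.

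The immunoproteasome genes Psmb8, Psmb9 and Psmb10 encode catalytic subunits that replace Psmb5, Psmb6 and Psmb7 in immune cells. None of the 8 genes of the immunoproteasome and activator list was called, and the medians were -0.021 in the neocortex and 0.090 in the CA1. Psmb8 was low, at 1.82 ± 0.174 CPM (SD, n = 3) in the CA1 controls and 2.74 ± 0.0967 (SD, n = 2) in the KO libraries (log2 fold change 0.59, edgeR adjusted p = 0.192). Psmb9 stood at 0.738 ± 0.355 and 1.34 ± 0.244 CPM (SD, n = 3 and 2) there (log2 fold change 0.82, edgeR adjusted p = 0.322). In the neocortex, Psmb10 stood at 38.7 ± 4.06 CPM in the controls and 31.5 ± 1.39 in the KO libraries (SD, n = 3 each, log2 fold change -0.29, edgeR adjusted p = 0.0757).

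Of the 12 transcription regulators, 0 were called in the neocortex and 2 in the CA1, with medians of 0.0048 and 0.043. Nfe2l2, the oxidative stress factor, rose in the CA1 from 15.2 ± 0.625 CPM (SD, n = 3) to 20.4 ± 1.14 (SD, n = 2), or 0.43 ± 0.10 on the log2 scale (SE, with an edgeR adjusted p of 0.0308). Nfyb, a subunit of the CCAAT-binding factor NF-Y, fell in the CA1 from 55.5 ± 1.5 CPM (SD, n = 3) to 45.6 ± 2.10 (SD, n = 2), or -0.29 ± 0.072 on the log2 scale (SE, with an edgeR adjusted p of 0.0416). Leaving out 1 library at a time ended the Nfe2l2 call in 4 of 5 fits (adjusted p 0.0389 to 0.202, all but the fit without D5135) and the Nfyb call in 5 of 5 (0.0601 to 0.215). In the neocortex the 2 genes stood at 0.19 (edgeR adjusted p = 0.210) and -0.17 (edgeR adjusted p = 0.154). Nfya, another NF-Y subunit, was at 0.26 in the neocortex (edgeR adjusted p = 0.0836) and 0.31 in the CA1 (edgeR adjusted p = 0.0743). Nfe2l1, named here for its known role although its p was not among the smallest of the list, stood at -0.016 (edgeR adjusted p = 0.905) in the neocortex and 0.047 (edgeR adjusted p = 0.754) in the CA1.

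The ubiquitin and shuttle list (11 genes tested), the p97 list (9) and the chaperonin CCT list (8) gave 0 calls in either tissue. Their medians were -0.014, 0.043 and 0.023 in the neocortex and -0.0041, 0.058 and -0.029 in the CA1. Nploc4, a cofactor of the p97 unfoldase, was at 0.20 (edgeR adjusted p = 0.109) in the CA1.

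Markers of cell types were called in both tissues, and their part in the values of the members was not tested. In the CA1, 6 of 10 microglial markers were called higher, with a summed level of 373 to 393 CPM in the controls and 510 to 573 in the KO libraries. All 8 oligodendrocyte markers were called lower there (summed 3724 to 4502 CPM in controls and 3037 to 3058 in KO), as were 2 of 8 excitatory neuron markers (5271 to 5936 and 4717 to 5172) and 2 of 5 CA1 pyramidal cell markers (490 to 546 and 338 to 362). Of 8 astrocyte markers 2 were called higher (2426 to 2524 and 2962 to 3176), of 5 endothelial markers 1 was called higher (125 to 146 and 141 to 143), and 0 of 6 inhibitory neuron (786 to 854 and 817 to 834) and 0 of 4 red blood cell markers (26.4 to 41.6 and 29.6 to 49.1) were called. In the neocortex, 3 of 10 microglial markers were called higher, and 4 lay below 0 without a call (summed 531 to 558 and 562 to 612 CPM). P2ry12 was the furthest below 0 of them (log2 fold change -0.35, edgeR adjusted p = 0.0909). Called lower in the neocortex were 2 of 8 excitatory neuron (5669 to 5744 and 4929 to 5044) and 1 of 5 CA1 pyramidal cell markers (301 to 335 and 275 to 288). Of the 8 neocortex astrocyte markers 0 were called, with a summed level of 2361 to 2465 CPM in the controls and 2505 to 2790 in KO. Among them Gfap, chosen after its values were seen, stood at 98.2 to 128 CPM in the controls and 173 to 258 in KO, without overlap (log2 fold change 0.99 ± 0.18, SE, edgeR adjusted p = 0.062). The oligodendrocyte (3197 to 3327 and 2888 to 3422 CPM), inhibitory neuron (1142 to 1162 and 1200 to 1248), endothelial (172 to 199.7 and 166 to 172) and red blood cell markers (33.4 to 45.5 and 37.9 to 52.2) gave 0 calls in the neocortex. The 4 T cell markers had 0 to 8 reads in all per library and were not tested in either tissue.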

How the data were processed

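Polyadenylated RNA of 11 libraries was measured as reads per gene. The authors deposited raw counts, whole numbers per Ensembl gene identifier, without normalization. The tools named with build GRCm38 are FastQC, GSNAP, SAMtools and bedtools, per the submitters' processing notes. Their versions, the counting rule, the annotation and the strand setting are not given in the sources used here, so reads of overlapping or near-identical genes may be split. Per the labels' protocols the neocortex kit was stranded and carried ERCC spike-ins, and the CA1 kit was unstranded. In the CA1 Psmd13 and Sirt3 (342 shared exon bases), Psmb7 and Nek6 (405) and Psmc3 and Slc39a13 (215), which lie on opposite strands, cannot be told apart where they overlap.

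The members, lists and tests were chosen with earlier results of these data known. Symbols, positions and transcripts came from GENCODE M21 (GRCm38), which matched 37693 of 39017 identifiers (96.6%). Each tissue was fitted with edgeR 4.0.16 in R 4.3.3 (TMM scaling, filterByExpr, robust quasi-likelihood F-test, two-sided), with Benjamini-Hochberg adjustment over all genes tested and a threshold of 0.05. The SE is the absolute log2 fold change divided by the square root of F, and log2 CPM used a prior count of 2. Within a tissue, p-values measure the spread between animals, 1 library each. The main interaction fit has no animal term and fits both kits together. Libraries of the same animal count as independent there, so its p-values and intervals do not measure the spread between animals alone. Genes were named by rule: all members by role, and per library those furthest from 0 on either side in each tissue (up to 3), the catalytic genes, and the highest and lowest per length. In related lists genes among those with the smallest p were named, and 1 is not reported here. Near-identical pseudogenes numbered 19 for 13 members, 17 by alignment with blastn 2.17.0 (at least 90% identity over at least 50% of the shorter of both transcripts) and 2 by their annotated name alone (Psmb6-ps and Psmb7-ps2). The fits were tested on simulated data. DESeq2 1.42.0, other scalings, no filter, leaving out libraries, spike-in sets and pseudogene reads added to the parent were the alternatives.

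Spike-in sets were read from 19 ERCC RNAs with at least 100 reads in every neocortex library, whose deviations correlated at 0.939 or more within a set and at -0.940 or less between sets. No pair of libraries of a group were copies (chi-square per gene 9.99 to 22.1). The labels give the same animal for both tissues of 4 animals, whose deviations correlated between tissues with r of 0.069, 0.072, 0.059 and 0.078 across genes, and animal was the block of an alternative interaction fit.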

Additional observations from a re-analysis of the deposited data

How the results depend on the processing

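The count of called members stayed 0 in the neocortex, the CA1 and the interaction under each alternative that was run, DESeq2 included for the single tissues. Fits that leave an arm with 1 library, as each spike-in set alone does, have little power, so a count of 0 there says little. With animal as a replicate block, the interaction called 0 members and 114 of all genes, with 2 residual degrees of freedom, the members' median was 0.066, and the smallest adjusted p of a member was 0.470 (edgeR). The neocortex median of the members became 0.917 when libraries were scaled by ERCC reads, where the median of all genes was 1.06 and no member was below 0. Relative to all genes the members then stood at -0.14, against -0.086 with TMM. The share of ERCC reads ran from 0.189% to 0.686% in the controls and from 0.113% to 0.268% in the KO libraries. It thus varied within a genotype as well, and what set it was not tested. Leaving out 1 library at a time gave neocortex medians of -0.12 to -0.029 and CA1 medians of -0.094 to -0.040. The single members' neocortex values kept their sign, or moved by less than their SE, in 453 of 496 cases, and 30 of the other 43 were under ERCC scaling. In the CA1 the count was 339 of 341. Core minus cap stayed below 0 in the neocortex in each setting (-0.046 to -0.029) and lay on either side of 0 in the CA1 (-0.018 to 0.025). It was not computed with DESeq2. Adding the reads of all near-identical pseudogenes, an alternative chosen after seeing the data, gave medians of -0.084 and -0.068. With 3 and 2 or 3 libraries a group, the median 95% interval of a member reached 0.14 to either side.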
